A study of Mus musculus with 59 samples.

Results

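The cytosolic ribosomal protein genes encode the proteins of the large (60S, Rpl) and small (40S, Rps) ribosomal subunits. They were followed in mouse embryonic stem cells during transcription arrest. Members were taken by symbol: Rpl or Rps, a number and at most 1 of the letters a, x, y or l, plus the stalk proteins Rplp0, Rplp1 and Rplp2 and the small-subunit protein Rpsa, without the Rps6k kinases. Repeated RefSeq rows were dropped and transcripts were summed by symbol, which gave 81 members (49 large subunit, 32 small subunit) of 23974 genes.

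Ribosomal protein mRNAs are among the most abundant and longest-lived mRNAs of growing cells, and each codes for a protein that the ribosome holds in a single or a few copies. Most vertebrate ribosomal protein mRNAs begin with a terminal oligopyrimidine (TOP) tract, a C followed by a run of C and T, through which mTOR signalling and the protein LARP1 control their translation and stability. Many of their introns hold small nucleolar RNAs (snoRNAs), which guide the modification of ribosomal RNA. A few canonical genes have paralogs with a narrower range of expression, such as Rpl10l, an intronless copy of the X-linked Rpl10 used in male germ cells.

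Of 59 samples in the series, 12 belong to this experiment, and the other 47 were not analysed here. The cells came from blastocysts of the BDF1 strain and were kept in serum medium with LIF, CHIR99021 and PD0325901. The control was wild type and the KO lacked Zcchc8, the scaffold of the nuclear exosome targeting complex, which passes nuclear RNA to the exosome for degradation. Both genotypes were sampled after 0, 4 and 8 h in Actinomycin D, a transcription inhibitor, at 5 µg/ml, with 2 libraries in each of the 6 groups. Per the labels, total RNA was depleted of ribosomal RNA and ERCC spike-ins were added. The labels do not say whether the libraries of a group came from separate cultures or how many clones the KO stands for, so p-values measure the spread between libraries, which may be technical.

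Libraries held 465324 to 1364523 counted reads. Values are the deposited normalised counts, that is, reads divided by 1 factor per library, and 1 read was worth 0.452 to 3.23 units. Zcchc8 itself was lower in KO at 0 h, by -2.42 on the log2 scale (SE 0.681, limma adjusted p = 0.0332), and at 4 and 8 h the estimates of -0.71 and -0.53 did not pass the test. Of 10 stem cell markers 8 averaged 10 or more, Nanog did not, and Esrrb was at 0 in every library. The summed value of the 10 at 0 h was 2554 to 4303 in control and 3373 to 3749 in KO. Control 0 h replicate 2 lay above replicate 1 by a median of 0.81 (log2) over genes, and the KO 8 h pair differed most from each other.

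The tests took in genes whose value averaged 10 or more across libraries, which left 66 members (39 large, 27 small) among 6952 genes. The other 15 are Rpl19, Rpl22, Rpl26, Rpl30, Rpl31, Rpl34, Rpl35a, Rpl38, Rpl39l, Rpl3l, Rps15, Rps24, Rps27, Rps27a and Rps27l. Of these, 11 have several RefSeq transcripts in the table and none of the 11 had a mean above 3.86. Over all genes, 8.47% of those with several transcripts reached a mean of 10, against 34.3% of those with 1 transcript. A value near 0 for such a member is therefore no measure of its mRNA. Whether the same holds for cell type markers at 0, such as Esrrb, was not tested. No read was counted for Rpl26, Rpl31, Rps15, Rps24 and Rps27l in any library. Of these, Rpl26, Rps15 and Rps27l have only 1 RefSeq transcript each in the table. The reason for their zeros was not tested, so these do not show that the mRNAs are absent. The testis paralog Rpl39l had 101 reads in all and a mean of 8.19, and Rpl3l, the striated muscle paralog of Rpl3, had 4 reads.

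Apart from Rpl10l, the mean values of tested members ran from 197 (Rps15a) to 3012 (Rpl27a), with a median of 891 over tested members. Rpl27a, Rpl13 and Rps2 had the highest mean values. Per kilobase of annotated transcript, a scale on which genes can be compared, the highest levels were those of Rpl36 (5352), Rpl41 (4217) and Rpl13 (3712). The median level per kilobase was 1154 for large subunit members and 1020 for small subunit members. Of the members, 60 have named pseudogenes (298 in all), and 15 tested members overlap exons on the opposite strand. Neither the strand setting of the counting nor its treatment of reads with several matches is stated, so reads from such copies could not be separated.

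Start sites are shown for a feature that the choice of members did not use, from 5 members that carry it and 3 that do not. Each line has 10 bases before and 20 bases from the RefSeq transcript start, 5′ to 3′ on the gene's strand (GRCm38.p6), with capitals for a tract of C and T that opens with C at the first transcribed base.
Rpl15 (minus strand, chr14:18270967-18270996): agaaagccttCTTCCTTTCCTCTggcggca
Rpl35 (minus strand, chr2:39005112-39005141): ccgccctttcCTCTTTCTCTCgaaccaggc
Rps10 (minus strand, chr17:27635225-27635254): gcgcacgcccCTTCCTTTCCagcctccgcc
Rps18 (minus strand, chr17:33955646-33955675): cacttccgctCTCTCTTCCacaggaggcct
Rps6 (minus strand, chr4:86857348-86857377): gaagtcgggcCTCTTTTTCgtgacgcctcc
Rpl13a (minus strand, chr7:45128726-45128755): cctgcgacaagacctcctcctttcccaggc
Rpl10 (plus strand, chrX:74270806-74270835): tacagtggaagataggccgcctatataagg
Rpl10l (minus strand, chr12:66284382-66284411): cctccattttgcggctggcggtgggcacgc
The tract of Rpl15 is the longest of these, with 13 bases, and Rpl13a, Rpl10 and Rpl10l have none at their annotated start. Of 60 members found in the promoter table, 13 (21.7%) began with a C followed by at least 4 bases that are C or T, against 813 of 27025 genes in all (3.01%), and 47 members did not. Of tested genes that are no members, 148 of 5118 (2.89%) did. The count takes the annotated first base as given, and an annotated start a few bases off the used one hides a tract, so it gives no number of TOP mRNAs.

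The share of a library's reads that fell in ribosomal protein genes does not depend on the scaling of the libraries. It was computed without Rn45s, the ribosomal RNA precursor, which held 13.5% to 16.0% of reads at 0 h and under 0.8% later. In control the share was 7.88% and 7.08% at 0 h, 10.6% and 11.4% at 4 h, and 11.2% and 11.2% at 8 h. In KO it was 6.83% and 6.78% at 0 h, 10.7% and 10.0% at 4 h, and 11.2% and 8.04% at 8 h. Both libraries of each genotype were higher at 4 h than at 0 h, and the 4 and 8 h libraries overlapped in range in both genotypes. KO 8 h replicate 2 held the lowest share of the libraries taken after 0 h. Exact 95% binomial intervals, which cover counting error only, were narrow, for example 6.72% to 6.84% for KO 0 h replicate 2. In bulk RNA, a change in the number of cells of a type and a change in RNA per cell cannot be told apart.

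The balance between subunits stayed within a narrow range. Large subunit members took 64.0% to 64.7% of ribosomal protein reads in all 12 libraries, across both genotypes and all times. Each member also held a steady place: the ratio of the highest to the lowest share of ribosomal protein reads over the 12 libraries had a median of 1.38 and was under 2 for 63 of 66 tested members. Rpl36, a large subunit protein, varied least, with a ratio of 1.16. The members above 2 were Rpl17 (2.08), Rps4l (2.31) and Rpl10l (41.4), named after their values were seen.

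**Figure D1:**
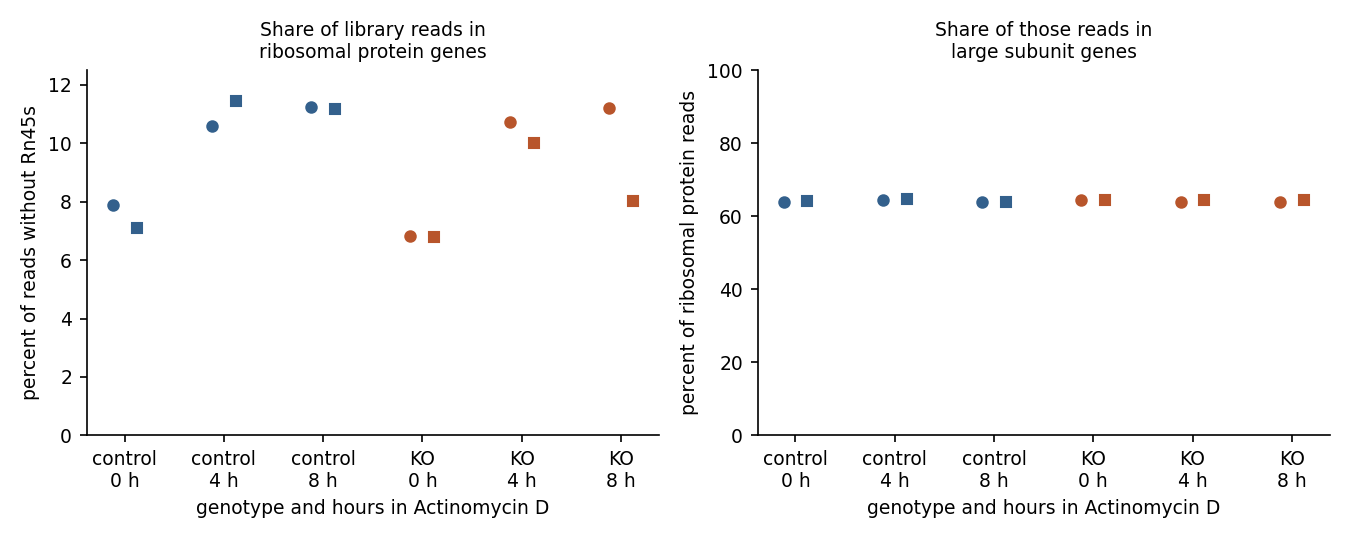
Left, percent of a library's reads without Rn45s that fell in ribosomal protein genes, by genotype and hours in Actinomycin D; right, percent of those reads in large subunit genes. Circles are replicate 1, squares replicate 2, blue control, orange KO, and bars are exact 95% binomial intervals. The left share was 6.78% to 7.88% at 0 h and 8.04% to 11.4% later, while the right share stayed between 64.0% and 64.7%.

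Over the first 4 h in Actinomycin D, ribosomal protein mRNAs lay above the typical transcript, which fell on the deposited scale. Estimates were differences in log2(value + 1). In control the median change of the 66 members was 0.15, with 58 of them above 0, against a median of -0.49 over all genes tested. In KO it was 0.02, with 39 above 0, against -0.68. The sign of the members' own median turned with single libraries. In control it was -0.22 and 0.50 with control 0 h replicate 1 and replicate 2 left out in turn, and 0.39 and -0.09 with those of control 4 h. In KO it was -0.04 with KO 4 h replicate 2 left out and 0.10 with replicate 1 left out. The gap to the median of all genes kept its sign, at 0.59 to 0.73 in control and 0.68 to 0.75 in KO over all libraries left out in turn. All members but Rpl10l lay above the median of all genes in control, and all but Rpl10l did in KO. The members' changes were also close together, with an interquartile range of 0.14 in control and 0.15 in KO, against 1.14 and 1.09 for all genes, many of which have fewer reads.

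No member was called on this scale from 0 to 4 h in either genotype by limma (Benjamini-Hochberg over all genes, adjusted p below 0.05), where 0.489% of all genes were called higher and 11.8% lower in control, and 0.0288% and 14.4% in KO. At an unadjusted p below 0.05, limma gave 0 members in control and 1 in KO, and edgeR called 0 in control and 1 lower in KO (17.5% of all genes). Relative to the typical transcript the picture was different. With TMM factors, which set the bulk of genes near 0 (median of all genes 0.07 in control and 0.02 in KO), 55 of 66 members rose in control and 52 in KO, where 5.21% and 3.55% of all genes were called higher. The members' median was 0.72 in control and 0.73 in KO. Large and small subunit members moved alike, with medians of 0.73 and 0.72 in control and 0.72 and 0.74 in KO. The comparisons of single intervals were added after the data were seen.

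Rplp2, a protein of the ribosomal stalk that recruits elongation factors, had the highest estimate in control. Its value was 653 and 808 at 0 h, 817 and 1110 at 4 h and 568 and 724 at 8 h. It was the only member whose control libraries did not overlap and were higher at 4 h (5.38% of all genes), and with TMM factors it rose by 0.96 (adjusted p = 0.00932). Rps15a, a small subunit protein, went the other way, at 208 and 249 at 0 h, 202 and 199 at 4 h and 87.0 and 108 at 8 h. It was the only member with both control libraries lower at 4 h than at 0 h, as were 39.3% of all genes.

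In KO the libraries did not overlap for 12 members that were higher at 4 h (3.81% of all genes) and 7 that were lower (62.8% of all genes). The 12 included the stalk base protein Rplp0, the 40S protein Rpsa, and Rpl35, Rps25 and Rpl13a. The 7 were Rpl10, Rpl10l, Rpl15, Rpl28, Rpl3, Rps15a and Rps4l.

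From 4 to 8 h the members fell with the rest. Their median change was -0.80 in control, against -0.79 for all genes, and -0.46 in KO, against -0.45. In KO it was -0.56 against -0.41 with KO 8 h replicate 1 left out, and -0.34 against -0.49 with replicate 2 left out. Both 8 h libraries were below both 4 h libraries for 65 of 66 members in control (66.2% of all genes) and for 62 in KO (47.7%). In control 1 member was called lower, Rpl17 (4.63% of all genes), and in KO 0 (0.0288%), with 41 and 1 members lower at an unadjusted p below 0.05 and 1 (8.3% of all genes) and 0 called by edgeR. With TMM factors the medians were 0.04 and 0.01 and no member was called in either genotype (0.115% and 0.0% of all genes lower), with 1 and 0 members at an unadjusted p below 0.05. Rpl17, a large subunit protein near the exit tunnel, had values of 1473 and 1868 at 4 h and 666 and 781 at 8 h in control, a change of -1.20 (SE 0.357, adjusted p = 0.0422). With pseudocount 5 its adjusted p was 0.0507 and without the filter 0.150, so that 0 members were called, and with a minimum mean of 50 there were 13. Its call was also lost when any of the 8 libraries of control 4 and 8 h and KO 0 and 4 h was left out. Without either control 0 h library or either KO 8 h library more members were called, and the share of all genes called then was not tabulated. The members' median in control was -1.03 to -0.56 over all libraries left out in turn.

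**Figure D2:**
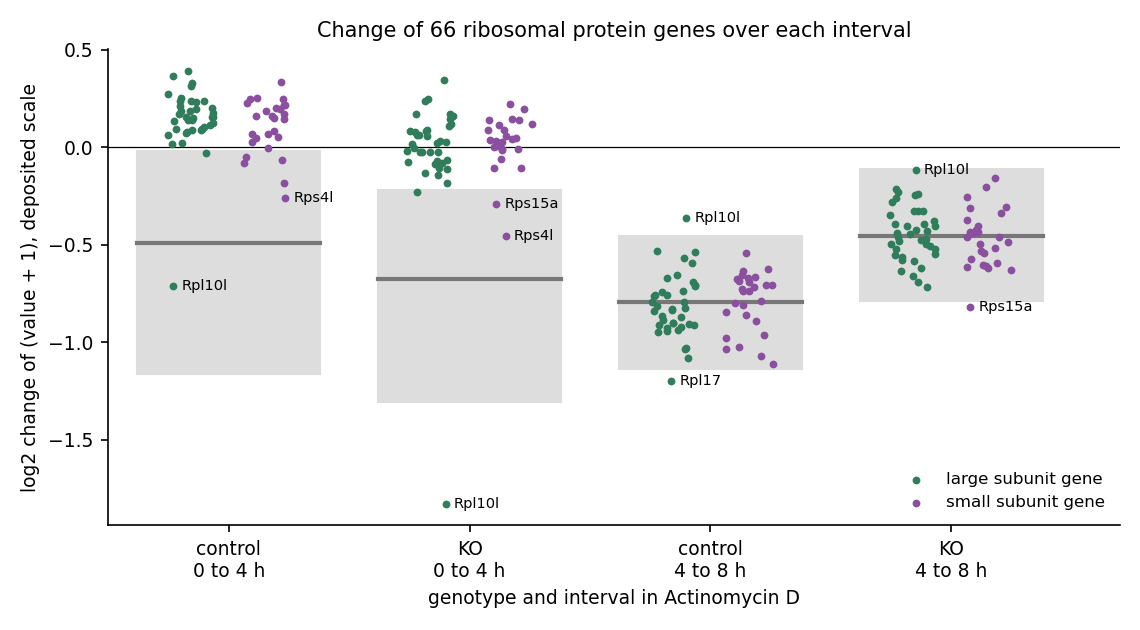
Log2 change of value + 1 on the deposited scale from 0 to 4 h and from 4 to 8 h for each of 66 ribosomal protein genes (points, shifted sideways for legibility), by genotype; grey boxes and lines give the quartiles and median of all 6952 genes tested. The members lie mostly at or above 0 over the first interval, above a median of -0.49 (control) and -0.68 (KO) for all genes, and around that of all genes over the second.

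A straight line over the 3 times gave a median change per hour of -0.081 for the members in control, against -0.166 for all genes, and of -0.054 in KO, against -0.143. With control 0 h replicate 1 left out the members' median in control was -0.138 (all genes -0.218), and with control 8 h replicate 1 left out -0.049 (all genes -0.143). The KO median was -0.032 (all genes -0.153) with KO 8 h replicate 2 left out. In control 0 of 66 members rose (0.446% of all genes) and 9 fell (52.1%): Rps4l, Rps15a, Rps6, Rpl17, Rps25, Rps26, Rpl13a, Rpl24 and Rpl6. Rps6, the target of S6 kinases, went from 722 and 1366 at 0 h to 757 and 1161 at 4 h and 400 and 497 at 8 h, a slope of -0.144 per hour (SE 0.0472, adjusted p = 0.0124). Its replicates overlapped at 0 and 4 h and lay lower at 8 h. Rps25, which serves initiation on some viral RNAs, fell by 0.136 per hour (adjusted p = 0.0137), and Rps26, which lies at the mRNA exit channel, by 0.135 (adjusted p = 0.0185). At the other end Rplp2 (-0.022), Rplp0 (-0.033), Rps21 (-0.037) and Rps2 (-0.037) had the estimates nearest 0.

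The count in control rested on single libraries. It rose when control 0 h replicate 1, control 4 h replicate 2 or KO 8 h replicate 2 was left out. It fell without any of the other libraries. The share of all genes called in these refits was not tabulated, so the counts are not given and say nothing particular to the members. With TMM factors all 66 slopes in control were above 0, and 34 members rose relative to the typical transcript (8.24% of all genes) while 0 fell (8.86%). By edgeR, on the deposited scale, 8 members fell (52.1%) and 0 rose (0.0863%).

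In KO 3 members fell (37.3% of all genes). Rps15a changed by -0.139 per hour (adjusted p = 0.0195), Rps4l by -0.134 (adjusted p = 0.0206) and Rpl10l by -0.243 (adjusted p = 0.0367). Rpl35 (0.0024), Rps23 (-0.014), Rpl29 (-0.018) and Rps26 (-0.020) had the highest estimates. The count in KO fell when either KO 0 h library or either KO 8 h library was left out. It rose without control 0 h replicate 1. Over all libraries left out in turn the members' median in KO was -0.063 to -0.032. With TMM factors 24 members rose (2.78%) and 0 fell (3.77%).

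The slopes of the genotypes could not be told apart for any member. The median difference, KO minus control, was 0.028 for members and 0.022 for all genes. It moved to 0.085 (all genes 0.069) with control 0 h replicate 1 left out, to 0.0095 (-0.012) with replicate 2 left out, to -0.0014 (-0.0011) with control 8 h replicate 1 left out and to 0.048 (0.013) with KO 8 h replicate 2 left out. In the full fit 0 of 66 members and 0 of 6952 genes were called in either direction (0.0%), by limma and by edgeR. No member had an unadjusted p below 0.05 in either tool. The extremes were Rps26 (0.115, SE 0.0673, adjusted p = 0.951) and Rps25 (0.112) at the upper end and Rpl10l (-0.109, SE 0.129, adjusted p = 0.971) and Rpl10 (-0.048) at the lower end. Across members, the slopes of control and KO had a Pearson r of 0.36 and a Spearman rho of 0.20 (n = 66), and r was 0.054 without Rpl10l, Rps4l and Rps15a (n = 63). The points share libraries and scaling factors.

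At each time most members were nominally higher in KO than in control on the deposited scale, by less than the typical gene. The median difference was 0.26 at 0 h (all genes 0.44), 0.15 at 4 h (0.29) and 0.48 at 8 h (0.63). It lay above 0 for 60, 57 and 65 of 66 members. With TMM factors the medians of all genes were 0.01, 0.00 and 0.00, and those of the members -0.17, -0.15 and -0.18, with 12, 8 and 10 members above 0. The direction of the family between genotypes thus turns with the scaling. The KO 0 h and 4 h libraries did not overlap with control for 16 and 14 members that were higher (37.3% and 37.0% of all genes) and 0 and 2 that were lower (3.27% and 8.7%). At 8 h, 54 members were higher without overlap (55.3%) and 0 lower (2.86%). Single libraries moved these medians too. With control 0 h replicate 1 left out the members' median at 0 h was -0.08 (all genes 0.02), and with replicate 2 left out 0.64 (0.81). At 4 h it was -0.06 (0.09) with control 4 h replicate 1 left out, 0.38 (0.46) with control 4 h replicate 2 left out and 0.07 (0.21) with KO 4 h replicate 2 left out. At 8 h, with KO 8 h replicate 2 left out, the members' median of 0.61 was no longer below that of all genes (0.59).

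On the deposited scale 1 member was called higher at 0 h (4.23% of all genes) and 1 at 8 h (4.88%), Rpl10l both times. At 4 h 0 were called (0.748%), with 1 member at an unadjusted p below 0.05 in limma and 0 called by edgeR. No member was called lower at any time (0.0719%, 0.0% and 0.0144%), none had an unadjusted p below 0.05 in that direction, and edgeR called 0. edgeR called 1 member higher at 0 h (2.23% of all genes) and 1 at 8 h (8.26%).

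The other members formed a narrow range. At 0 h the highest estimates after Rpl10l were those of Rps4l (0.79), Rpl10 (0.79) and Rpl12 (0.62), and the lowest those of Rpl17 (-0.36), Rps25 (-0.21), Rpl13a (-0.15) and Rps14 (-0.13). At 4 h Rps4l (0.60) followed Rpl10l, the stalk protein Rplp1 (0.46) was also near the top, and Rpl17 (-0.50), Rps14 (-0.28), Rpl23a (-0.11) and Rpl14 (-0.10) were lowest. At 8 h Rps23, a protein of the decoding site, followed at 1.01 (adjusted p = 0.0945), then Rps26 (0.98) and Rps4l (0.95), while Rps14 (-0.14), Rpl17 (0.14), Rps21 (0.16) and Rpl3 (0.17) were lowest. The interquartile range of the members was 0.23, 0.16 and 0.20 at the 3 times, against 0.87, 0.76 and 0.79 for all genes.

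Rpl10l, the germ cell paralog of Rpl10, was the member that differed most between genotypes. In control its value was 5.3 and 29.1 at 0 h, 2.9 and 17.0 at 4 h and 3.2 and 9.0 at 8 h, from 4 to 22 reads a library. In KO it was 99.4 and 153 at 0 h, 46.0 and 25.2 at 4 h and 32.5 and 30.2 at 8 h, from 24 to 87 reads. At each time both KO libraries lay above both control libraries.

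The difference was 3.18 at 0 h (SE 0.694, adjusted p = 0.00505), 2.06 at 4 h (SE 0.694, adjusted p = 0.198) and 2.31 at 8 h (SE 0.694, adjusted p = 0.0413). The call at 0 h was lost when control 0 h replicate 1 or KO 0 h replicate 2 was left out. The estimate at 0 h was 2.05 to 4.31 over all libraries left out in turn. At 8 h the call was lost when control 8 h replicate 1, KO 0 h replicate 2 or either KO 8 h library was left out, with TMM factors (1.77, adjusted p = 0.213) and without the filter (adjusted p = 0.216). Leaving out either control 0 h library gave more members called at 4 and 8 h, and the share of all genes called then was not tabulated. With TMM factors the counts called higher were 1 at 0 h (1.35% of all genes), 0 at 4 h (0.69%) and 0 at 8 h (1.44%), with Rpl10l at 0 h the one called (2.74, adjusted p = 0.0449), and at an unadjusted p below 0.05 they were 1, 1 and 2.

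Rpl10, the canonical X-linked protein that completes the 60S subunit before it can join the 40S, had 394 and 575 at 0 h in control and 798 and 850 in KO. The KO libraries lay higher, and the difference of 0.79 (SE 0.363) did not pass the test (adjusted p = 0.233). Rpl10l held 1.32% and 4.81% of the reads of the pair in control at 0 h and 11.1% and 15.3% in KO. At 4 h it held 0.543% and 2.52% in control and 6.02% and 3.54% in KO, and at 8 h 0.951% and 2.29% against 5.51% and 6.86%. The KO libraries were above the control libraries at every time, whatever the scaling. Per kilobase Rpl10l stood at 9.72% and 14.1% of the level of Rpl10 in KO at 0 h.

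Whether reads of Rpl10 could be taken for Rpl10l depends on how far the sequences differ. The 60 aligned bases with the most differences are shown, so they are not typical of the pair. They were sought without gaps within the longest open reading frame of Rpl10 (GENCODE M21 transcripts, GRCm38, sense strand, 5′ to 3′). Capitals mark bases that differ.
Rpl10l: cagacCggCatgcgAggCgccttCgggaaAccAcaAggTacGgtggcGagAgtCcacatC
Rpl10: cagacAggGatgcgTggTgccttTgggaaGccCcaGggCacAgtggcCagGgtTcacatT
The stretch differs at 14 bases. Over 664 aligned columns the transcripts were 84.3% identical, the longest identical run was 23 bases, and 0 of 974 words of 50 bases in Rpl10l occurred in Rpl10. The mismatches allowed in alignment are not stated, and the 6 named pseudogenes of Rpl10 were not compared. Whether reads were counted for the wrong gene was therefore not tested.

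Of 7 germ cell markers, 1 had a mean of at least 10, Sycp3, and Ddx4, Dazl and Tnp1 were at 0 in every library. Their summed value at 0 h was 23 to 62 in control and 13 to 16 in KO. On the deposited scale the sum of the fibroblast markers was higher in KO. Of these, 7 of 10 had a mean of at least 10, Pdgfrb was at 0, and the sum at 0 h was 5143 to 8392 in control and 12198 to 16094 in KO. At 4 h that sum was 7497 to 8968 in control and 15175 to 16466 in KO, and at 8 h 6691 to 8303 and 9181 to 12004. Of 4 neuroectoderm markers 3 averaged 10 or more and Pax6 was at 0. Their sum was 86.9 to 162 in control and 272 to 359 in KO at 0 h, 117 to 168 against 226 to 306 at 4 h, and 90.3 to 108 against 131 to 193 at 8 h. On this scale the median of all genes tested was also higher in KO, by 0.44, 0.29 and 0.63 (log2) at 0, 4 and 8 h. The marker sums were not computed with TMM factors, so how far they exceed that general shift was not tested. The part of any of these lists in the genotype differences of ribosomal protein genes was not tested.

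Rps4l is annotated by GENCODE (M21, GRCm38) as a transcribed processed pseudogene, and is related to Rps4x, the X-linked gene of a small subunit protein. It was read at a level close to that of Rps4x, at 564 per kilobase against 524 over the 12 libraries. The 60 bases with the most differences, sought in the same way, are shown with capitals at bases that differ.
Rps4l: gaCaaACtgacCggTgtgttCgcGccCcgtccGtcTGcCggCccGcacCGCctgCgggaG
Rps4x: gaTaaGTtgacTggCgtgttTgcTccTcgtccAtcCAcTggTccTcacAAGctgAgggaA
The stretch differs at 19 bases. The transcripts were 79.7% identical over 847 columns, with a longest identical run of 38 bases and no shared word of 50 bases. Whether reads were counted for the wrong gene of this pair was not tested either.

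In control Rps4l had values of 408 and 665 at 0 h, 382 and 495 at 4 h and 216 and 229 at 8 h. In KO these were 913 and 894, 649 and 668, and 448 and 413. The KO libraries lay above the control libraries at each time, but the differences of 0.79, 0.60 and 0.95 did not pass the test (adjusted p = 0.235, 0.647 and 0.113). Rps4l lies on chromosome 6, whose 336 tested genes had medians close to these, at 0.74, 0.53 and 0.87. They were the highest of 18 chromosomes with tested members, and those of chromosome X, with Rps4x, were 0.38, 0.22 and 0.65. The part of the chromosome in the values and pair share of Rps4l was not tested. On the deposited scale Rps4l fell over time in both genotypes, by -0.153 per hour in control (adjusted p = 0.00584) and -0.134 in KO (adjusted p = 0.0206), while Rps4x changed by -0.060 and -0.057 (adjusted p = 0.259 and 0.304). With TMM factors the slopes of Rps4l turned to 0.023 and 0.013, and those of Rps4x were 0.12 and 0.09. The difference between the slopes of Rps4l and Rps4x was not tested.

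The share of Rps4l in the reads of the pair, which no scaling affects, declined with time in both genotypes. In control it was 52.9% and 52.4% at 0 h, 45.5% and 44.5% at 4 h and 39.7% and 40.0% at 8 h. In KO it was 61.5% and 56.6%, 53.5% and 49.6%, and 48.3% and 48.7%. The replicates of successive times did not overlap in either genotype, and KO lay above control at each time. No test of this share was made, and the counting intervals, such as 48.8% to 57.0% for control 0 h replicate 1, do not cover variation between cultures.

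**Figure D3:**
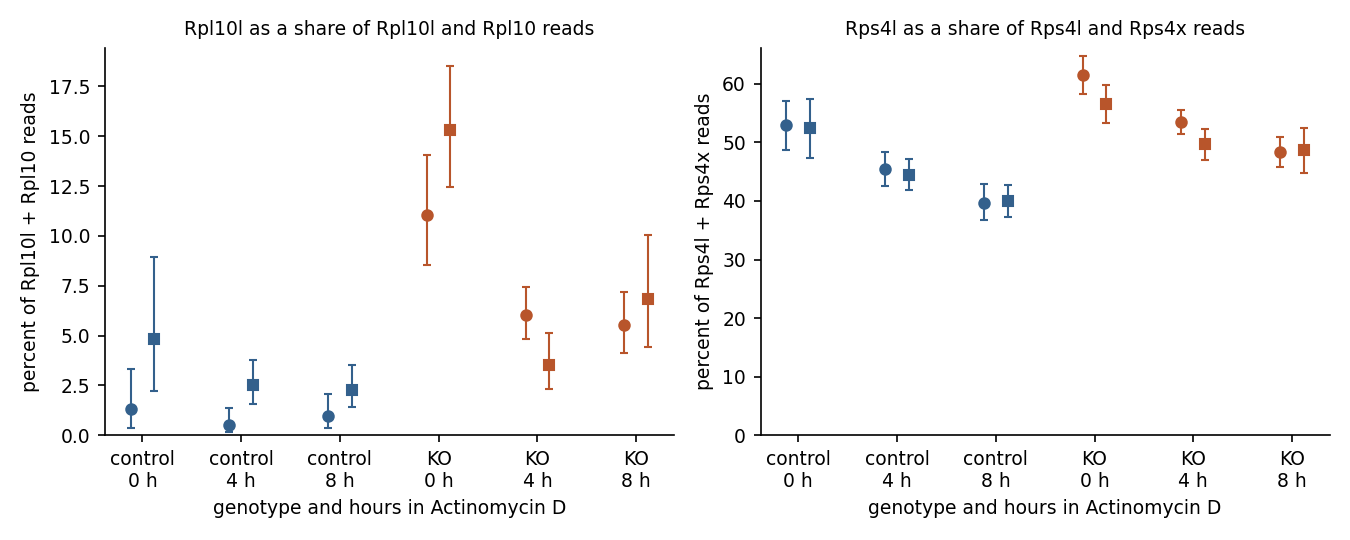
Percent of the reads of a paralog pair that were counted for Rpl10l (left, of Rpl10l and Rpl10) and Rps4l (right, of Rps4l and Rps4x), by genotype and hours in Actinomycin D, with exact 95% binomial intervals; circles are replicate 1, squares replicate 2. Rpl10l was highest in KO at 0 h (11.1% and 15.3%), and Rps4l declined from 52.9% and 52.4% to 39.7% and 40.0% in control and lay higher in KO at each time.

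Rpl17 and Rps14 stood at the lower end. Rpl17 had values of 1292 and 1961 in control and 1368 and 1118 in KO at 0 h, and 1473 and 1868 against 1145 and 1203 at 4 h. Rps14, a small subunit protein whose loss in humans underlies the anaemia of the 5q- syndrome, had 662 and 1257 in control and 781 and 894 in KO at 0 h, and 872 and 1193 against 842 and 836 at 4 h. At 4 h these were the 2 members with both KO libraries below both control libraries.

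On the deposited scale the differences were -0.36 at 0 h and -0.50 at 4 h for Rpl17 (adjusted p = 0.669 and 0.739), and -0.13 and -0.28 for Rps14 (adjusted p = 0.912 and 0.902). With TMM factors Rpl17 was the only member called lower in KO, by -0.80 at 0 h (adjusted p = 0.0195, 0.388% of all genes called lower) and by -0.80 at 4 h (adjusted p = 0.0274, 0.245%). At 8 h its TMM estimate was -0.53 (adjusted p = 0.135), and 0 members were called lower (0.273% of all genes) with 5 at an unadjusted p below 0.05. Rps14 had TMM estimates of -0.56, -0.58 and -0.81 (adjusted p = 0.211, 0.248 and 0.0599).

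As a share of ribosomal protein reads, Rpl17 took 2.37% and 2.16% in control at 0 h, 2.23% and 2.06% at 4 h and 1.65% and 1.58% at 8 h. In KO it took 1.60% and 1.33%, 1.40% and 1.34%, and 1.14% and 1.34%. Rps14 took 1.22% to 1.39% in the 6 control libraries and 0.741% to 1.06% in the 6 KO libraries. The genotypes did not overlap at any time for either gene. The 2 genes were picked for their low values in KO, and these shares restate the same reads, so they are no separate support. How many other members had shares without overlap was not counted.

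Both genes lie on chromosome 18, the only tested members there. Its 203 tested genes had the lowest median difference of 18 chromosomes with tested members at each time on the deposited scale, at 0.04, -0.08 and 0.21. With TMM factors, the scale of the calls of Rpl17, its medians were again the lowest, at -0.39, -0.37 and -0.41. On the deposited scale the highest chromosome medians, 0.74, 0.53 and 0.87, were those of chromosome 6, where Rps4l lies. The part of the chromosome in the values of Rpl17 and Rps14 was not tested.

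**Figure D4:**
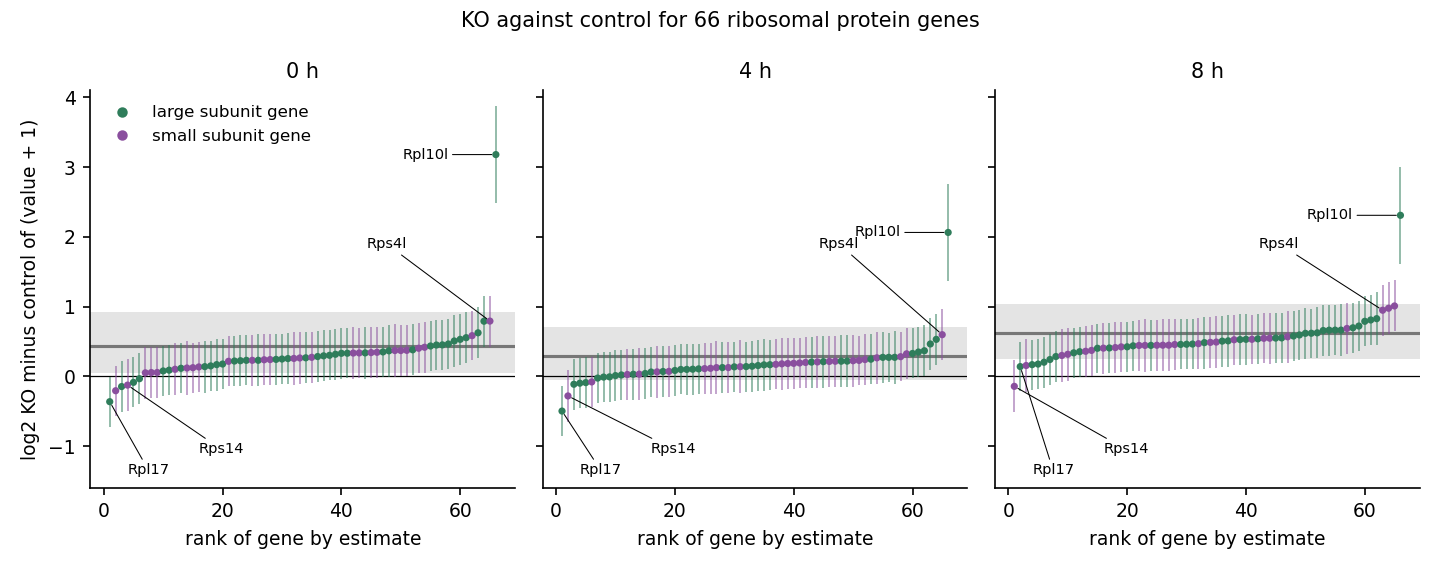
Log2 difference, KO minus control, of value + 1 on the deposited scale for 66 ribosomal protein genes ranked by estimate at 0, 4 and 8 h; vertical lines are 1 standard error, the grey band and line the quartiles and median of all genes tested. Rpl10l stands above the rest at 3.18, 2.06 and 2.31, and most members lie below the median of all genes (0.44, 0.29 and 0.63).

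**Figure D5:**
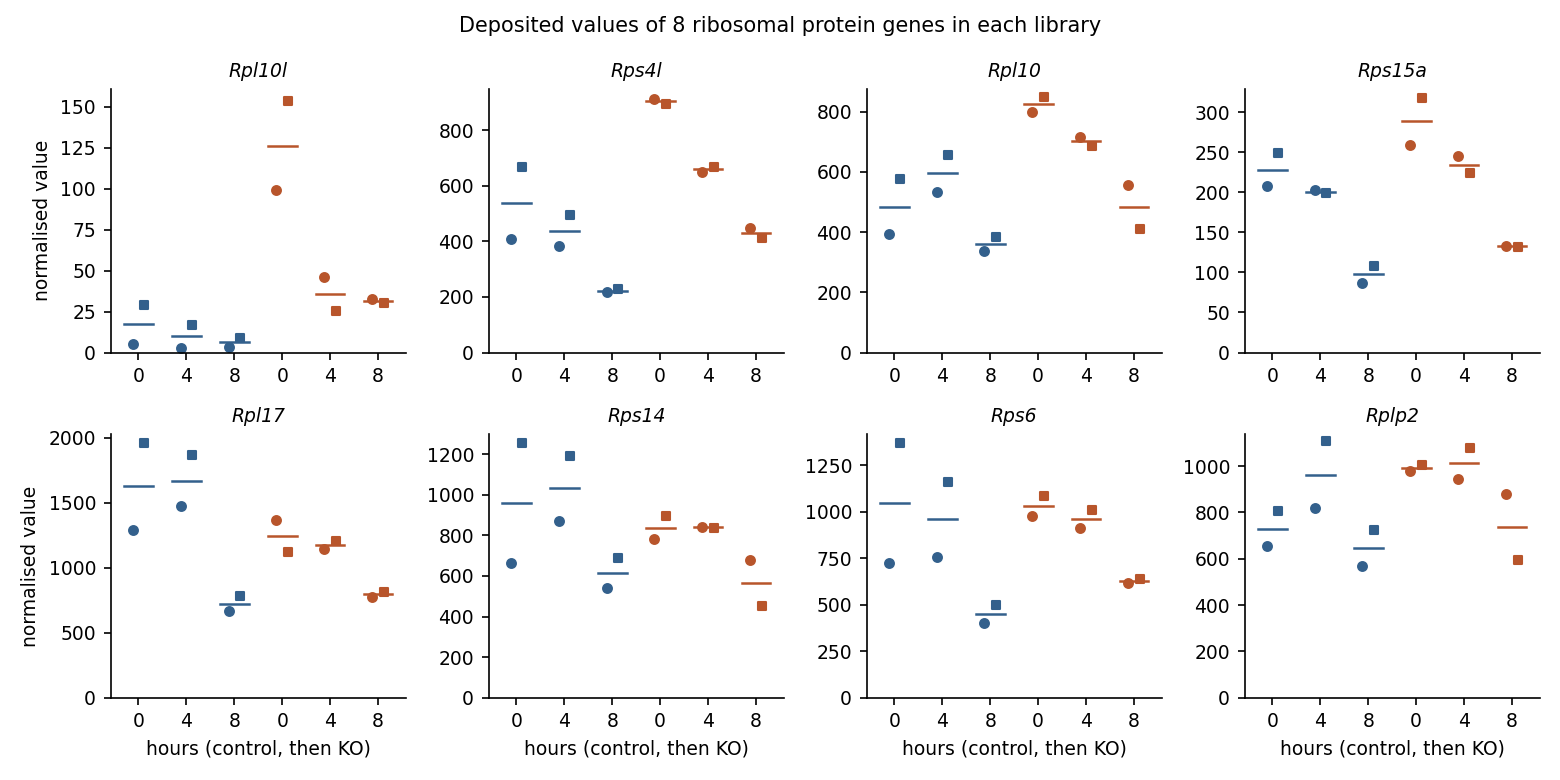
Deposited normalised value of 8 ribosomal protein genes in each of 12 libraries (circle replicate 1, square replicate 2) with the group mean as a line, control in blue and KO in orange. Rpl10l is high in KO at 0 h (99.4 and 153), Rps4l and Rps15a decline over the hours in both genotypes, and Rpl17 and Rps14 lie lower in KO than in control at 4 h.

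Members that host snoRNAs had medians close to those of the other members. Of the tested members 28 have a snoRNA within the gene on the same strand, and their median change from 0 to 4 h was 0.15 in control, as for the 38 without one. The median difference between genotypes at 0 h was 0.24 for hosts and 0.28 for the others, and at 8 h 0.48 for both. Among the hosts, Rpl13a had values of 1067 and 1880 in control and 1366 and 1197 in KO at 0 h, with overlapping groups and a difference of -0.15 (adjusted p = 0.888). Rpl7a had a difference of 0.25 (adjusted p = 0.791) and Rps3 of 0.37 (adjusted p = 0.669). A test of hosts against other members was not made.

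Other translation genes give the setting. Of 16 tested mRNAs of other TOP genes, such as the elongation factors Eef1a1 and Eef2 and the poly(A) binding protein Pabpc1, 5 fell in control over time (Ncl, Eef1g, Eif4b and Eef1b2 among them) and 3 in KO, where 52.1% and 37.3% of all genes did. Their median change from 0 to 4 h was 0.05 in control and -0.11 in KO, and with TMM factors 0.62 and 0.60, with 7 of the 16 higher in each genotype (5.21% and 3.55% of all genes). Eef1a1 changed by 0.10 in control and -0.10 in KO, Eef2 by 0.03 and -0.12, and Tpt1 by 0.31 and -0.06 over that interval, without a call.

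Beside medians of -0.49 and -0.68 from 0 to 4 h and shares of 52.1% and 37.3% falling over time among all genes, other groups stood as follows on the deposited scale. Of 64 tested ribosome biogenesis factors, 52 fell over time in control and 36 in KO, with medians from 0 to 4 h of -0.45 and -0.63. Ddx21, a helicase of the nucleolus, changed by -0.22 per hour in control (adjusted p = 3.18e-04) and -0.18 in KO (adjusted p = 0.00412), and Mybbp1a by -0.17 and -0.12 (adjusted p = 0.00297 and 0.0425). Bysl fell in control (-0.14 per hour, adjusted p = 0.0159). Of 63 tested mitochondrial ribosomal protein genes, 33 fell in control and 26 in KO, with medians from 0 to 4 h of -0.27 and -0.46, led by Mrps25 (-0.43 and -0.37 per hour, adjusted p = 3.41e-05 and 3.65e-04). Of 24 tested initiation factors 16 fell in control and 9 in KO, among them Eif3a and Eif5b in both, with medians from 0 to 4 h of -0.37 and -0.30. These directions hold on the deposited scale only: with TMM factors the medians from 0 to 4 h in control and KO were 0.11 and 0.07 for biogenesis factors, 0.25 and 0.23 for mitochondrial ribosomal proteins and 0.20 and 0.40 for initiation factors, below the members' 0.72 and 0.73. With TMM factors, 4 mitochondrial, 12 biogenesis and 2 initiation factor genes fell in control over time, and 0, 6 and 0 in KO, where 8.86% and 3.77% of all genes fell.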

How the data were processed

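Per the labels and the submitters' processing notes, reads were processed with TopHat2 2.1.1, HTSeq 0.6.0 and DESeq2 on mm9; their settings are not stated. The deposited signal is reads per RefSeq transcript divided by 1 factor per library: 100% of values were whole multiples of 1 read within 0.001 reads. The table as used here has 0 spike-in rows, so nothing was rescaled to spike-ins. After 978 repeated rows were dropped, 32918 transcripts were summed to 23974 genes. The members and gene lists were chosen with earlier results of these data known.

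Genes with a mean of at least 10 were tested with limma 3.58.1 (R 4.3.3; trend and robust, two-sided) on log2(value + 1), which understates changes of low genes, as 6 group means and as a line per genotype over 0, 4 and 8 h. Calls are Benjamini-Hochberg adjusted p below 0.05 over all 6952 genes. Adjusted p-values without a tool's name are limma's. Alternatives were TMM factors (edgeR 4.0.16), edgeR's quasi-likelihood test on recovered reads, pseudocount 5, other filters, a replicate block and leaving out each library. Only the test of KO against control at 0 h was checked on simulated counts. These held no shift between the libraries of a group, unlike the data, so the check does not cover calls that rest on single libraries. Named were all members not tested, the 5 with the highest mean, paralogs with their partners, called members and the 4 highest and lowest estimates per comparison, some snoRNA hosts, and from other lists the most abundant and some called genes. Some genes that this rule would name are not reported here. Annotation (GENCODE M21, RefSeq GRCm38.p6) is of another build than the counts, so no gene positions are given apart from the start sites from RefSeq. Lengths per kilobase come from transcripts matched by RefSeq accession and may differ from the model counted.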

Additional observations from a re-analysis of the deposited data

How the results depend on the processing

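Of 1076 recomputed values, 895 stayed the same, 71 lost and 9 gained a call, 90 moved and 11 reversed, all 11 with TMM factors. Same meant a count within a set ratio, a median within the members' median standard error, or a share within the replicate spread. A named gene had to keep its direction and call or, where uncalled, move by less than its standard error. The 895 are no measure of stability, since a median cannot change when the library left out is of a group outside its comparison. The cause of the shift between scales was not tested. With TMM factors, the counts of members called that moved between genotypes were 1 lower at 0 h, 1 lower at 4 h and 0 higher at 8 h. Rpl10l stayed called higher at 0 h. Over time they were 34 higher and 0 lower in control and 24 higher and 0 lower in KO. From 0 to 4 h they were 55 higher in control and 52 in KO, and from 4 to 8 h in control 0 lower. The reversed slopes in control were 0.057 for Rpl13a, 0.033 for Rpl17, 0.064 for Rpl24, 0.069 for Rpl6, 0.023 for Rps15a, 0.040 for Rps25, 0.041 for Rps26, 0.023 for Rps4l and 0.032 for Rps6, and in KO 0.0075 for Rps15a and 0.013 for Rps4l. With a minimum mean of 50, which drops Rpl10l, 0 members were called higher at 0 h and 0 at 8 h, and 13 were called lower from 4 to 8 h in control. With no filter 0 were called higher at 8 h and 0 lower from 4 to 8 h in control. With pseudocount 5 the latter was 0, and 1 was lower from 0 to 4 h in KO, as by edgeR. Same-numbered libraries did not pair (correlations of -0.070 to 0.117 between deviations, with 2 numbers only); with a replicate block, 4 members were called higher at 8 h, 24 lower over time in control, 28 lower from 4 to 8 h in control and 1 lower from 0 to 4 h in KO.

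Leaving out 1 library at a time gave 0 to 5 members higher at 0 h, 0 to 1 at 4 h and 0 to 7 at 8 h; 0 to 61 lower over time in control and 0 to 8 in KO; 0 to 1 lower from 0 to 4 h in control, 0 to 42 from 4 to 8 h in control and 0 to 1 from 0 to 4 h in KO. With all reads as denominator the mean share of ribosomal protein genes was 6.33% in control and 5.81% in KO at 0 h. Without the member with the most reads, large subunit members held 62.6%, 63.1% and 62.5% of the rest in control and 63.0%, 62.7% and 62.5% in KO at 0, 4 and 8 h. At this depth a member such as Rpl10l rests on 4 to 22 reads in control, and members with fewer could not be tested.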

Other observations

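The X-linked members Rpl10, Rpl36a, Rpl39 and Rps4x had a median difference between KO and control of 0.39 at 0 h, 0.23 at 4 h and 0.55 at 8 h on the deposited scale, beside medians of 0.38, 0.22 and 0.65 over the 154 tested genes of chromosome X. With TMM factors the members' medians were -0.04, -0.07 and -0.11. Rpl39l, the paralog of Rpl39, had 0 to 32 reads a library and stood at 0.0% to 5.18% of the level of Rpl39 per kilobase, with genotypes that overlapped at 0 and 4 h. At 8 h it stood at 1.96% and 0.438% in control and 3.82% and 4.83% in KO, without overlap.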
